A study of Schizosaccharomyces pombe with 24 samples.

Results

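The comparison set fission yeast lacking both gcn5 and elp3 against fission yeast lacking both mst2 and elp3. It held 5 of the 24 arrays of the series: 2 of the Δgcn5 Δelp3 strain and 3 of the Δmst2 Δelp3 strain. They were chosen by genotype label. Elp3 was missing from both strains, so the arrays asked how transcript levels differ when the second acetyltransferase lost is Gcn5 or Mst2. The series measured total RNA of Schizosaccharomyces pombe in 9 groups of wild-type and histone acetyltransferase mutant cells grown at 30 °C in asynchronous culture. Each array was an Affymetrix Yeast Genome 2.0 GeneChip with 1 log2 intensity per probe set. Replicates were stated to be independent isolates. Every array lacking elp3 came from 1 experiment date, 3 Δelp3 arrays and 1 array of the Δgcn5 Δelp3 Δmst2 triple mutant among them.

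Each double mutant was 1 strain, so that strain and genotype cannot be told apart. By the study's strain list both were h+ and both carried leu1-32 and ura4-D18. The Δgcn5 Δelp3 strain was Δgcn5::KanMX4 Δelp3::KanMX6 ade6-M210, and the Δmst2 Δelp3 strain was Δelp3::KanMX6 Δmst2::URA4+ ade6-M216. The Δelp3 strain was also h+ and Δelp3::KanMX6. Within the group of 5 arrays an exact permutation test over arrays has 10 arrangements and cannot give a p below 0.1, so the tests below are limma fits across all features with Benjamini-Hochberg adjustment.

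Gcn5 is the catalytic subunit of SAGA, a coactivator complex that acetylates histone H3 at promoters and serves mainly genes that respond to nutrients and stress. Mst2 is a MYST family acetyltransferase of a separate complex that acts on histone H3 and opposes silencing near telomeres. Elp3 is the catalytic subunit of Elongator, known for histone acetylation during transcription and for modifying wobble uridines of tRNA.

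The deleted genes matched their labels in all 5 arrays. The level of gcn5 was 5.24 and 5.15 on the 2 Δgcn5 Δelp3 arrays, and 10.89, 11.03 and 10.87 on the 3 Δmst2 Δelp3 arrays. The level of mst2 was 10.41 and 10.32 in Δgcn5 Δelp3, and 5.24, 5.20 and 5.20 in Δmst2 Δelp3. The elp3 transcript was low throughout, at 5.95 and 5.93 in Δgcn5 Δelp3 and 6.23, 6.05 and 6.61 in Δmst2 Δelp3, against 11.47 to 12.02 in wild type. Its difference between the double mutants was -0.36 ± 0.17 log2 (SE, adjusted p = 0.2).

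Among named genes the marker of the mst2 deletion gave the largest difference. The level of ura4, which encodes orotidine 5′-phosphate decarboxylase, was 7.45 and 7.32 in Δgcn5 Δelp3 and 13.54, 13.40 and 13.51 in Δmst2 Δelp3, a difference of -6.10 ± 0.13 (limma, adjusted p = 1.2e-08). It belongs to the way the strains were made. The h+ mating type was the same by the strain list. None of 7 genes of M cells and 6 genes of P cells passed the test, which 13.6% of all features passed. With lists this small that says little. The mating-type entries matmc_1, matmi_1, matpc and matpi were not matched to a named feature. The M-factor gene mfm2 lay between 5.35 and 6.18 on all 5 arrays, and the receptor gene map3 between 9.71 and 9.93.

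At an adjusted p under 0.05, 677 of 4981 features differed between the double mutants, which is 13.6%. Of these, 329 (6.61%) were higher in Δgcn5 Δelp3 and 348 (6.99%) were lower. The study's higher threshold, read as 3.25-fold, left 50 features (1.00%), 33 higher (0.663%) and 17 lower (0.341%). The distribution was narrow, with the percentiles 5 and 95 of the differences at -0.565 and 0.563. The counts rested on few arrays: without replicate 1 or 2 of Δgcn5 Δelp3 the features passing fell to 75 higher and 80 lower, or 87 and 83, and without replicate 3 of Δmst2 Δelp3 to 217 and 201. Without replicate 1 of Δmst2 Δelp3, 26 features rather than 17 were lower at the fold threshold.

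The 2 Δgcn5 Δelp3 arrays were closer to each other than any pair within Δmst2 Δelp3 or within Δelp3. Their log2 differences had an SD of 0.14, against 0.231 to 0.322 within Δmst2 Δelp3, 0.236 to 0.316 within Δelp3, and 0.447 to 0.549 between the double mutants. The arrays of the double mutants did not overlap for any of the 677 features that passed. With so few arrays the same held for 26.6% of all features in the higher direction and 26.1% in the lower.

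**Figure D1:**
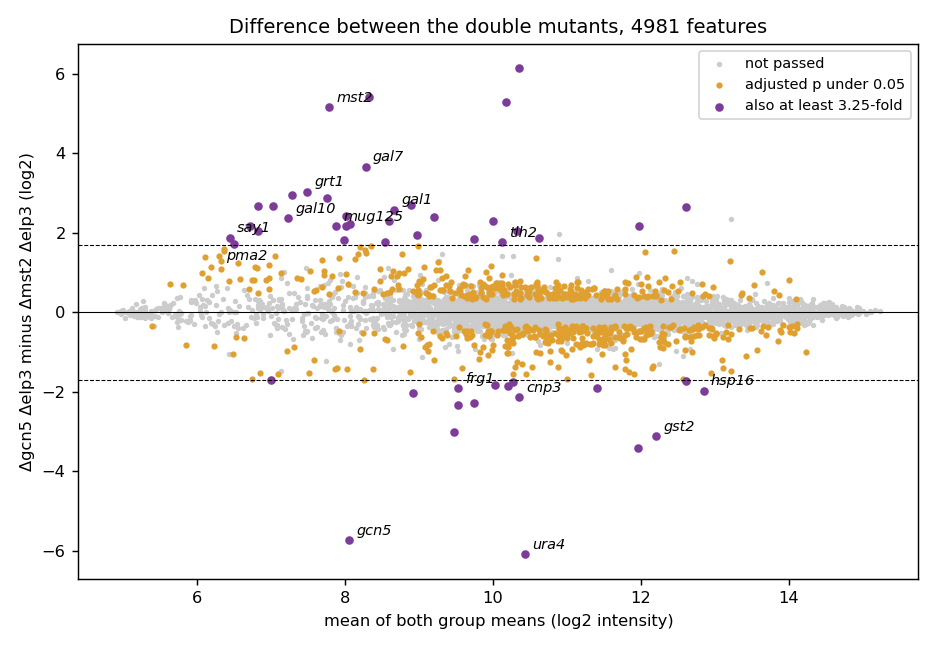
Difference between the double mutants (log2, Δgcn5 Δelp3 minus Δmst2 Δelp3) against the mean of both group means (log2 intensity), 1 point per feature. Dashed lines mark 3.25-fold. Of the named genes, gcn5, mst2 and ura4 lie farthest from 0, with gal7 and grt1 next above and gst2 next below.

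Of the 9 named genes higher in Δgcn5 Δelp3 at the fold threshold, 3 encode enzymes of galactose use. The gene gal7, which encodes galactose-1-phosphate uridylyltransferase, was 12.6-fold higher in Δgcn5 Δelp3. Its level was 10.13 and 10.10 in Δgcn5 Δelp3 and 6.57, 6.10 and 6.70 in Δmst2 Δelp3, a difference of 3.66 ± 0.16 (limma, adjusted p = 4.7e-06). The galactokinase gene gal1 was at 10.07 and 9.86 against 7.38, 7.29 and 7.47, a difference of 2.58 ± 0.14 (limma, adjusted p = 1.3e-05). The epimerase gene gal10 was at 8.46 and 8.38 against 5.76, 5.93 and 6.50, a difference of 2.36 ± 0.26 (limma, adjusted p = 7.9e-04). For all 3 genes it was the Δmst2 Δelp3 arrays that stood away from the Δelp3 arrays. Against Δelp3, gal7, gal1 and gal10 were at -3.60, -3.16 and -2.53 log2 in Δmst2 Δelp3 (limma, adjusted p of 1.5e-06, 1.5e-06 and 4.9e-04), and at 0.06, -0.58 and -0.17 in Δgcn5 Δelp3, where gal1 alone passed (adjusted p = 0.0456). These 2 contrasts share the Δelp3 arrays. Over all features, 1.12% passed as lower and 0.482% as higher in Δmst2 Δelp3 against Δelp3, and 3.75% as lower and 2.57% as higher in Δgcn5 Δelp3.

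The low levels of these genes were found in Δmst2 Δelp3 and not in the triple mutant, which also lacks mst2 and elp3. On the 1 triple mutant array gal7 was at 10.16, gal1 at 10.02 and gal10 at 9.02. The lowest value of gal7 in any group outside Δmst2 Δelp3 was 9.64, on an array labelled Δgcn5. The triple mutant had no replicate, so these values carry no test. Its array also differed from the double mutants in mating genes, though the strain list gives it as h+ too. The M-factor gene mfm2 was at 12.60 and the P-cell gene map2 at 11.95. On the 5 arrays of the double mutants mfm2 lay between 5.35 and 6.18 and map2 between 7.22 and 7.63. The reason was not tested, and it limits every comparison with the triple mutant here.

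The 3 gal genes lie close together near 1 end of chromosome II, and the named genes around them moved in the same direction. Counting protein-coding genes inward from that end, tlh2 is the 1st, gal1 the 12th, gal10 the 13th, gal7 the 15th, say1 the 21st and cao2 the 30th. All 6 of the named genes measured among those 30 were higher in Δgcn5 Δelp3, with a median difference of 2.12. Over all features 6.61% were higher and 6.99% lower, the shares to set beside each count in this paragraph. The limit of 30 was chosen after the values were seen. Farther in, of the 19 measured named genes up to the 60th, none was higher and 1, ppr8, was lower, at -1.04 (limma, adjusted p = 1.9e-04). At the same depth of 30 genes the other ends of chromosomes I and II were mixed, with 2 higher and 1 lower of 4, 0 higher and 1 lower of 4, and 1 higher of 4.

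The gene tlh2 encodes a RecQ type helicase of the chromosome end repeats and has close copies, which the array may not tell apart. Its level was 11.03 and 10.98 in Δgcn5 Δelp3 and 9.73, 9.17 and 8.82 in Δmst2 Δelp3, a difference of 1.76 ± 0.30 (limma, adjusted p = 0.00712). Without either Δgcn5 Δelp3 array it no longer passed. With the mean of its probe sets the difference was 1.48, under the fold threshold. In wild type, on arrays of the other experiment date, tlh2 lay between 5.33 and 7.83. Its level in Δmst2 Δelp3 was thus below Δelp3 and above wild type. The gene say1, named for a sterol deacetylase of budding yeast, was at 7.37 and 7.40 against 5.43, 5.54 and 5.56, a difference of 1.88 ± 0.12 (limma, adjusted p = 4.3e-05). The copper amine oxidase gene cao2, which lies outside the rule for named genes and was picked for its position, was at 10.28 and 10.15 against 9.44, 9.46 and 9.63 (difference 0.71 ± 0.19, limma, adjusted p = 0.0389). For tlh2 and say1, too, Δmst2 Δelp3 was the group away from Δelp3, at -1.58 and -1.65 log2 (limma, adjusted p of 0.0225 and 5.2e-05), while Δgcn5 Δelp3 was at 0.18 and 0.22 (adjusted p of 0.801 and 0.34). For cao2 the Δmst2 Δelp3 arrays overlapped with the Δelp3 arrays, at 9.80, 9.83 and 9.18. On the triple mutant array tlh2 was at 12.69, say1 at 8.59 and cao2 at 10.86. In Δgcn5 Δmst2, say1 was also low, at 5.81 to 5.88, while gal7 was at 9.85 to 10.89. The arrays measured RNA only, and whether that end of chromosome II is intact in the Δmst2 Δelp3 strain was not tested. For gal1, gal10, gal7, say1 and tlh2, a transcript level below that of Δelp3 and a loss of gene copies cannot be told apart here.

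**Figure D2:**
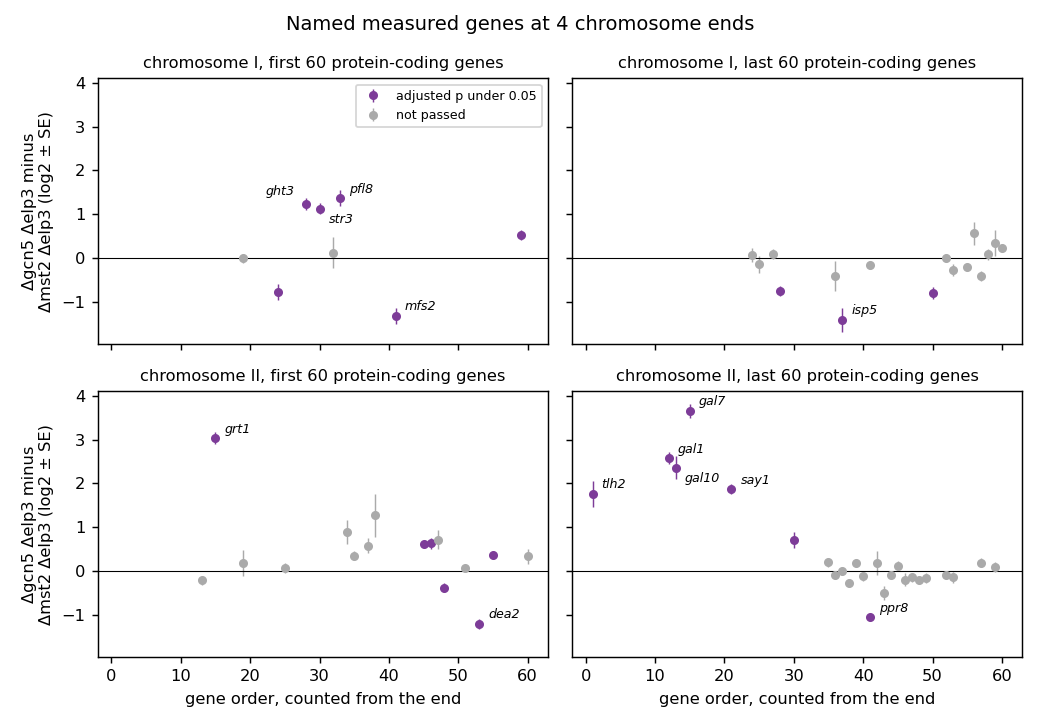
Difference between the double mutants (log2 ± SE) for named measured genes by their order from 4 chromosome ends, 1 panel per end. At the last end of chromosome II the 6 genes within 30 of the end lie above 0, and the genes beyond lie near 0 apart from ppr8.

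**Figure D3:**
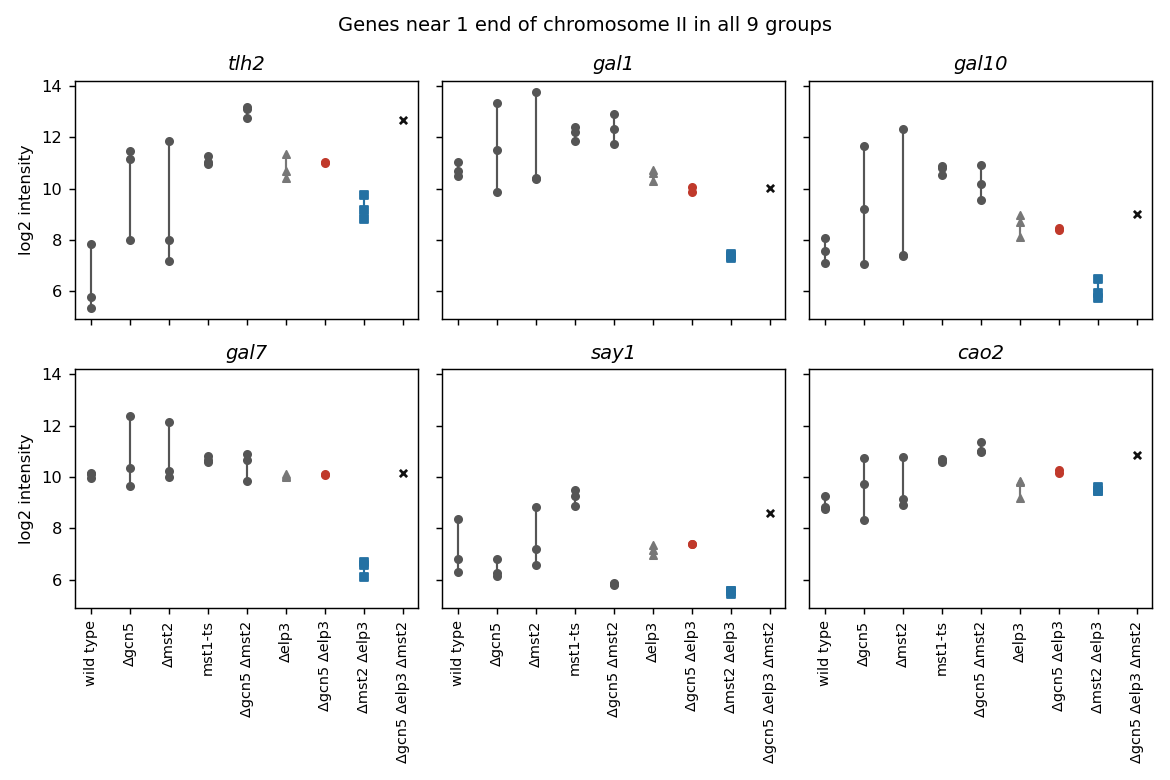
Level (log2 intensity) of the 6 genes near the end of chromosome II in all 9 groups, 1 point per array, with a line from lowest to highest. The 3 Δmst2 Δelp3 arrays have the lowest values of gal7, gal1, gal10 and say1 in the series, and 1 array each of Δgcn5 and Δmst2 carries the other's deletion pattern.

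Over the 4 ends together, the 60 protein-coding genes nearest each end held 65 measured named genes. Of these, 14 were higher and 8 lower in Δgcn5 Δelp3, 33.8% against 13.6% of all features, with a median difference of 0.09 beside 0.005 for all features. The gene grt1, near the first end of chromosome II, had the highest difference after mst2 and gal7. It was at 8.99 and 9.03 in Δgcn5 Δelp3 and 5.97, 5.88 and 6.09 in Δmst2 Δelp3, a difference of 3.03 ± 0.14 (limma, adjusted p = 5.1e-06). The Δelp3 arrays lay between the double mutants, at 7.78, 7.46 and 7.92. Both contrasts with Δelp3 passed, at 1.29 in Δgcn5 Δelp3 and -1.74 in Δmst2 Δelp3 (limma, adjusted p of 0.00103 and 7.3e-05). In wild type, on arrays of the other experiment date, grt1 lay between 5.95 and 6.49. Its level in Δmst2 Δelp3 was thus near that of wild type, and Δelp3 and Δgcn5 Δelp3 were above it. Unlike the gal genes, grt1 was low in the triple mutant, at 5.42.

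The other named genes at the fold threshold on the higher side were mug125 and pma2. The meiotically upregulated gene mug125 was at 8.93 and 8.99 against 6.64, 6.70 and 7.06, a difference of 2.16 ± 0.17 (limma, adjusted p = 1.2e-04). The gene pma2, which encodes a P-type proton ATPase, was at 7.43 and 7.30 against 5.65, 5.64 and 5.63, a difference of 1.73 ± 0.11 (limma, adjusted p = 4.4e-05). In both cases Δgcn5 Δelp3 was the group away from Δelp3, at 1.60 for mug125 and 1.63 for pma2 (limma, adjusted p of 0.00103 and 9.5e-05). In Δmst2 Δelp3 the same contrasts were -0.56 and -0.09 (adjusted p of 0.152 and 0.75).

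On the lower side, beside gcn5 and ura4, stood gst2, hsp16, cnp3 and frg1. The glutathione S-transferase gene gst2 was at 10.58 and 10.70 in Δgcn5 Δelp3 and 13.69, 14.04 and 13.57 in Δmst2 Δelp3. This difference was -3.13 ± 0.18 (limma, adjusted p = 2.1e-05), and the Δelp3 arrays at 12.43, 12.68 and 12.11 lay between. The small heat shock gene hsp16 was at 11.95 and 11.77 against 13.84, 13.81 and 13.87, a difference of -1.98 ± 0.35 (limma, adjusted p = 0.00838), and did not pass without either Δgcn5 Δelp3 array. Its value on the third Δelp3 array, 10.85, was below the other two at 12.09 and 12.28. For hsp16 it was Δmst2 Δelp3 that differed from Δelp3, at 2.10 (limma, adjusted p = 0.0109).

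The gene cnp3 encodes CENP-C, a protein of the inner kinetochore. It was at 9.32 and 9.25 in Δgcn5 Δelp3 and 11.08, 11.72 and 11.47 in Δmst2 Δelp3, a difference of -2.14 ± 0.19 (limma, adjusted p = 2.4e-04). The gene frg1 was at 8.69 and 8.45 against 10.36, 10.47 and 10.62, a difference of -1.91 ± 0.11 (limma, adjusted p = 2e-05). Both were low in Δgcn5 Δelp3 against Δelp3, at -1.98 and -1.75 (limma, adjusted p of 6.8e-04 and 6.4e-05), and both were low on the triple mutant array, at 8.96 and 8.23. The named genes at the fold threshold other than gcn5, mst2 and ura4 number 12. The triple mutant array was nearer to Δgcn5 Δelp3 for 9 of them and nearer to Δmst2 Δelp3 for grt1, gst2 and hsp16. Those 9 include gal7, gal1, gal10, say1 and tlh2, which lie near the same end of chromosome II and are not separate observations. The triple mutant had no replicate, and the share of all features nearer to either group was not counted.

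**Figure D4:**
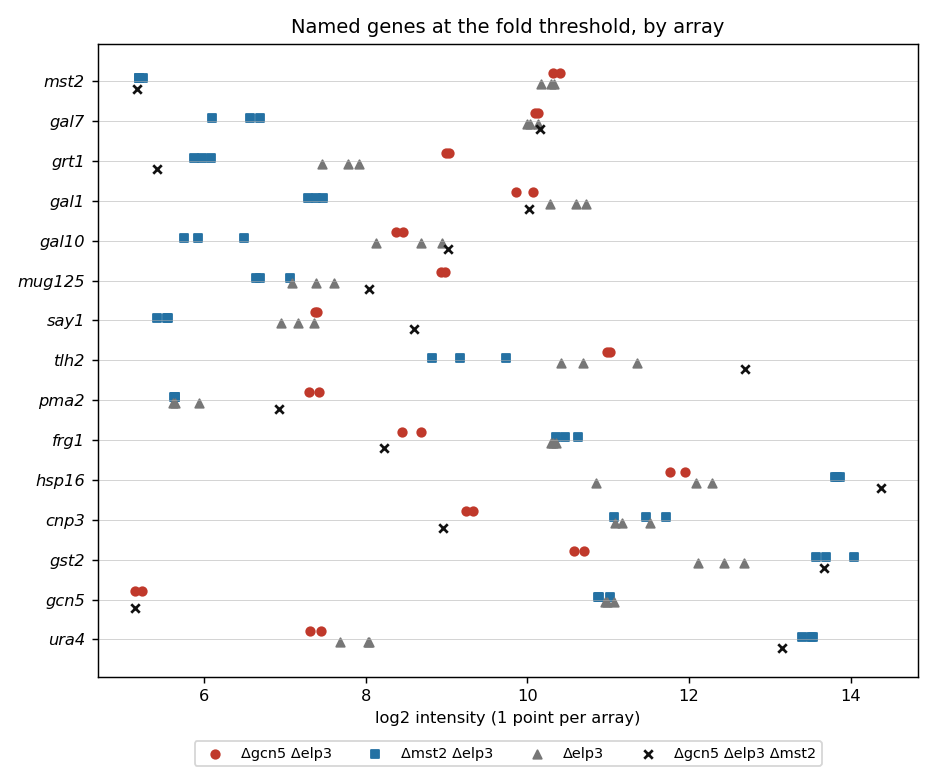
Level (log2 intensity, 1 point per array) of the 15 named genes at the fold threshold in the double mutants, in Δelp3 and on the 1 triple mutant array. The arrays of the double mutants do not overlap for any of the 15, and Δelp3 sits with Δgcn5 Δelp3 for gal7 and with Δmst2 Δelp3 for cnp3 and frg1.

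Features with no gene name in the annotation, 2085 of the 4981 tested, made up 24 of the 33 and 11 of the 17 at the fold threshold. The largest was probe set 1769886_s_at, at 13.78 and 13.07 in Δgcn5 Δelp3 and 6.69, 7.24 and 7.95 in Δmst2 Δelp3 (difference 6.14 ± 0.49, limma, adjusted p = 1.3e-04). Next came 1777803_at, at 11.03 and 11.05 against 5.40, 5.46 and 6.02 (difference 5.42 ± 0.17, limma, adjusted p = 4.1e-07). Its Δelp3 mean was 11.06 and its triple mutant value 10.97, so it shared the pattern of gal7. On the lower side were 1772389_at at -3.41 ± 0.32 and 1772678_at at -3.02 ± 0.14 (limma, adjusted p of 2.8e-04 and 5.5e-06).

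Of 34 measured genes of glucose repression and carbon use, 10 were higher and 3 lower in Δgcn5 Δelp3, 38.2% against 13.6% of all features, with a median of 0.22. The list includes gal7, gal1 and gal10, so its share counts the end of chromosome II again. The hexose transporter gene ght5 was at 13.11 and 13.33 in Δgcn5 Δelp3 and 11.78, 11.80 and 11.48 in Δmst2 Δelp3, a difference of 1.53 ± 0.29 (limma, adjusted p = 0.0105). Its Δelp3 values of 12.39, 11.98 and 11.21 spread widely. The list held 8 genes of the ght transporter family, counted after their values were seen. Of these, ght3, ght2 and ght4 also rose, by 1.24, 0.76 and 0.64, and the other members, ght1, ght6, ght7 and ght8, did not pass, at 0.47, -0.06, -0.21 and -0.12. The citrate synthase gene cit1, chosen in the same way, fell by 1.09.

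Of 13 genes on the list for copper and zinc, 1 was higher and 4 were lower, 38.5% against 13.6% of all features, with a median of -0.22. The amine oxidase gene cao2, which is not on that list, was higher, at 0.71 as given above. The copper transporter genes ctr5 and ctr4, whose products act as 1 complex, fell by 1.21 ± 0.10 and 0.68 ± 0.12 (limma, adjusted p of 1.5e-04 and 0.00892). The level of ctr5 was 12.50 and 12.49 in Δgcn5 Δelp3 and 13.65, 13.63 and 13.84 in Δmst2 Δelp3. The copper amine oxidase gene cao1 fell by 1.43 ± 0.16, from 12.52, 12.52 and 12.45 in Δmst2 Δelp3 to 11.12 and 11.01 in Δgcn5 Δelp3 (limma, adjusted p = 9.1e-04). The zinc transporter gene zrt1 was higher, at 14.20 and 14.08 against 12.82, 13.48 and 13.07, a difference of 1.02 ± 0.25 (limma, adjusted p = 0.0295). Of 13 genes of iron uptake, 2 were higher and 1 lower, 23.1% of the list against 13.6% of all features. The transporter gene str3 was at 6.57 and 6.96 against 5.72, 5.64 and 5.55 (difference 1.13 ± 0.13, limma, adjusted p = 8.6e-04), while str2 was at 0.49 and pcl1 at -0.37. The triple mutant was far above both double mutants for str3, at 13.07.

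The genes of nitrogen use did not shift as a list, with a median of -0.04. Of 26 measured, 5 fell and none rose in Δgcn5 Δelp3, 19.2% against 13.6% of all features. The amino acid permease gene isp5 was at 7.35 and 7.05 in Δgcn5 Δelp3 and 8.02, 8.70 and 9.09 in Δmst2 Δelp3, a difference of -1.40 ± 0.27 (limma, adjusted p = 0.0114). The others that fell were car1, aca1, the cationic amino acid transporter gene cat1 and the glutamate dehydrogenase gene gdh1, by 1.04, 0.96, 0.75 and 0.72, the last named after its value was seen. Both isp5 and cat1 also lie near the last end of chromosome I, as the 37th and 28th gene. Of 10 measured genes on the list for phosphate and thiamine, only the vitamin transporter gene vht1 passed, at -0.49, 10% against 13.6% of all features. The phosphate entries pho1, pho84, pho7, tgp1, pho842 and pqr1 of that list were not matched to a named feature.

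Of 35 stress response genes, 5 fell and none rose, 14.3% against 13.6%, and the list median was 0.09. Beside gst2 and hsp16, plr1, which encodes a pyridoxal reductase, fell by 1.48 ± 0.16 from 13.98, 14.01 and 13.90 in Δmst2 Δelp3 to 12.51 and 12.46 in Δgcn5 Δelp3 (limma, adjusted p = 7.2e-04). The gene obr1 fell by 0.99 and caf5 by 0.79. The heat shock gene hsp9 had the highest value of the list and did not pass. It was at 14.42 and 14.37 in Δgcn5 Δelp3, 12.79, 11.46 and 11.92 in Δmst2 Δelp3 and 14.03, 14.06 and 11.59 in Δelp3, a difference of 2.34 ± 0.69 (limma, adjusted p = 0.0577). Both hsp9 and caf5 were named after their values were seen. Of 20 genes of cation and salt homeostasis, pma2 was higher, and the vacuolar exchanger gene vcx1 and the glycerol-3-phosphate dehydrogenase gene gpd2 were lower, at -0.41 and -0.38. These were 15% of the list, near the 13.6% of all features.

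Genes of meiosis and sporulation passed in both directions. Of 61 measured, 9 rose and 2 fell, 18% against 13.6%, with a median of 0.13. Among 3 meiotic septin genes, spn6 was at 8.94 and 8.88 against 7.24, 7.70 and 7.43 (difference 1.46 ± 0.19, limma, adjusted p = 0.002) and spn5 at 8.32 and 8.69 against 7.77, 7.61 and 7.25 (difference 0.96 ± 0.19, adjusted p = 0.0141). None of the 4 septin genes of vegetative cells passed. The genes meu18 and meu10 were lower, at -1.25 ± 0.10 and -0.99 ± 0.20 (limma, adjusted p of 1.2e-04 and 0.0134). For meu10 it was Δmst2 Δelp3 that was away from Δelp3, at 1.49 (limma, adjusted p = 0.00243).

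The master regulators of sexual differentiation gave no difference that passed, and their values divided the Δmst2 Δelp3 arrays. Both were named after their values were seen. The level of mei2, which encodes an RNA-binding protein needed for meiosis, was 10.11 and 9.98 in Δgcn5 Δelp3 and 7.50, 8.86 and 9.41 in Δmst2 Δelp3, a difference of 1.46 ± 0.44 (limma, adjusted p = 0.0619). The transcription factor gene ste11 was at 11.54 and 11.40 against 10.27, 11.86 and 12.10, a difference of 0.06 ± 0.44 (adjusted p = 0.94). Replicate 1 of Δmst2 Δelp3 was near the Δelp3 arrays for both genes, which lay between 7.49 and 7.61 for mei2 and between 10.28 and 10.31 for ste11. Of 20 pheromone signalling genes, ste7 was higher at 0.74 and the Ras GTPase-activating gene gap1 and the zinc finger gene moc3 were lower at -0.72 and -0.42, so that 15% of the list passed against 13.6% of all features. Of 11 genes of cell and nuclear fusion, 4 rose and 1 fell, 45.5% against 13.6% of all features, led by the membrane protein gene dni2 at 1.04. In the same list num1 and mcp6, whose products serve nuclear movement in meiosis, were at 0.59 and 0.56, and the fusion gene cfr1 at -0.46.

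Chromatin genes changed little beyond the deletions. Of 13 acetyltransferase and deacetylase genes, sir2, a deacetylase of silent chromatin, was the member that passed beside gcn5 and mst2. It was at 11.24 and 11.12 in Δgcn5 Δelp3 and 10.72, 10.59 and 10.60 in Δmst2 Δelp3, a difference of 0.55 ± 0.10 (limma, adjusted p = 0.011). Of 19 SAGA subunit genes, spt20 was the 1 that passed, at 0.35, which is 5.26% of the list against 13.6% of all features. None of 5 genes of the Mst2 complex and none of 11 of Elongator and the wobble tRNA pathway did. Of 22 heterochromatin genes, tlh2 was higher and tas3, a subunit of the RITS silencing complex, was lower at -0.59, together 9.09% of the list. Of the 4 strain marker genes, his3 was lower beside ura4, at -0.48.

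Of 8 measured genes on the flocculin list 2 passed, 25% against 13.6% of all features. The list also holds regulators. Its entries gsf2, pfl1, pfl2, pfl3, pfl4, pfl5, pfl6, pfl7 and pfl9 were not matched to a named feature. The gene pfl8 was at 11.51 and 11.03 in Δgcn5 Δelp3 and 10.03, 9.90 and 9.77 in Δmst2 Δelp3, a difference of 1.37 ± 0.18 (limma, adjusted p = 0.00214). The other that passed was mbx2, which encodes a transcription factor of flocculin genes, at 0.57. The cell separation list had the lowest median, -0.55 over 11 genes, of which 27.3% passed against 13.6% of all features. In that list adg3 and the septum protein gene mid2 fell by 1.08 and 0.80 and the glucanase gene agn2 was higher at 0.76. The adg3 values in Δelp3 were 10.83, 10.75 and 11.56, so that the third Δelp3 array lay with Δmst2 Δelp3. The same held for cdt1, which encodes a replication licensing factor. It was 1 of 3 that passed among 21 G1/S genes of the MBF factor, 14.3% of the list against 13.6% of all features. It was at 8.10 and 8.16 in Δgcn5 Δelp3, 9.67, 9.72 and 9.55 in Δmst2 Δelp3 and 8.36, 8.18 and 9.63 in Δelp3, with a difference of -1.52 ± 0.36 (limma, adjusted p = 0.0267). In that list rep1 and ctp1 were higher, at 0.45 and 0.45.

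Few genes of growth passed. None of 38 ribosome biogenesis genes, 11 histone genes and 13 reference genes passed, and 1 of 111 ribosomal protein genes did, rps1401 at 0.75, a gene with a near-identical copy. The DNA repair genes rad1 and rad2 were higher at 0.45 and 0.43 among 31 measured, 6.45% of the list against 13.6% of all features. Of 16 wtf genes, a gene family whose probe sets may share signal, wtf20, wtf21 and wtf9 were higher at 1.11, 0.61 and 0.54. These were 18.8% of the list against 13.6% of all features, of which 6.61% were higher and 6.99% lower.

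**Figure D5:**
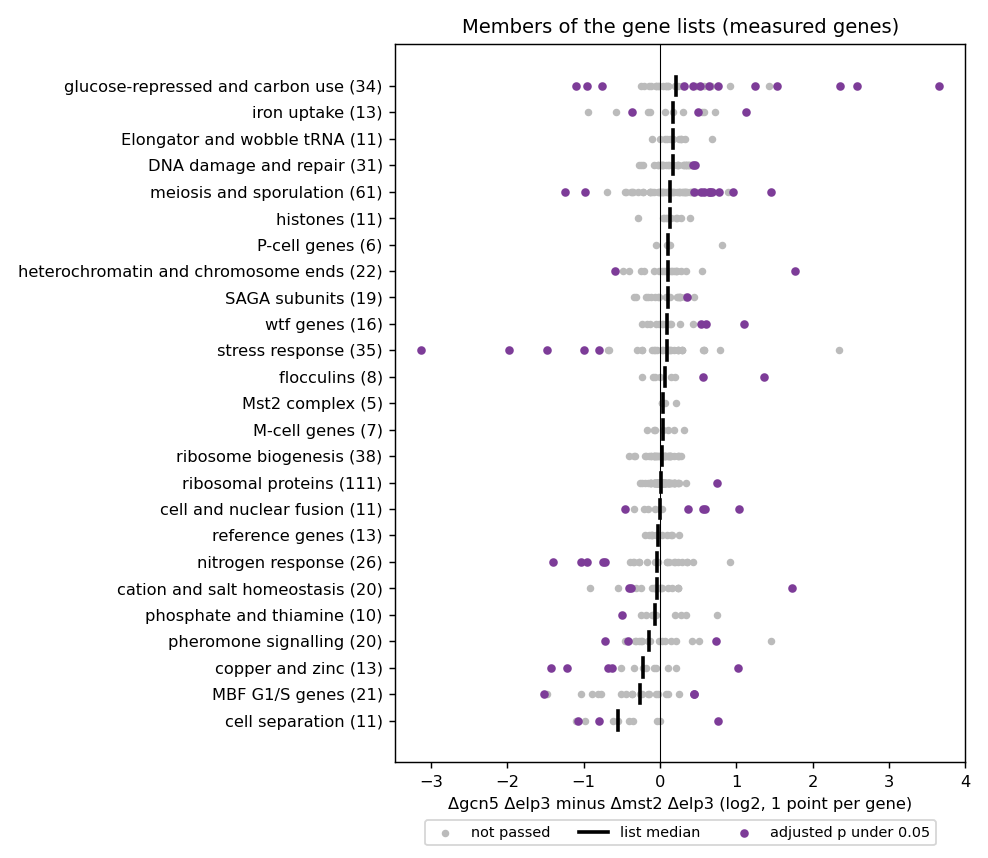
Difference between the double mutants (log2) for each measured member of 25 gene lists, with list medians as black lines and the number of measured genes in parentheses. Carbon use holds the highest points and cell separation the lowest median, while ribosomal protein and ribosome biogenesis genes cluster at 0.

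The same exchange of Gcn5 for Mst2 can be read in cells that kept elp3, from Δgcn5 and Δmst2 arrays of the other experiment date. One library of each was left out, because the array labelled Δgcn5 replicate 2 had gcn5 at 10.93 and mst2 at 5.21 and the array labelled Δmst2 replicate 2 had gcn5 at 5.44 and mst2 at 10.01. By the strain list the Δgcn5 strains were h-, which the double mutants were not. With the other 22 arrays, the difference between the double mutants itself differed from that between the single mutants for 363 features, 7.29% of all, at an adjusted p under 0.05 in limma. With all 24 arrays the number was 99, or 1.99%. Leaving out 1 array at a time moved it between 57 and 1530, lowest without Δmst2 replicate 1 and highest without Δmst2 replicate 3, so the number has little stability.

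For the genes of galactose use the 2 backgrounds differed in size for gal7, which was 1.22 log2 higher in Δgcn5 than in Δmst2, a difference between backgrounds of 2.44 ± 0.59 (limma, adjusted p = 0.0253). It passed in 6 of 10 alternatives, which left out 1 array or used all 24. Over all features, 27.7% passed between the single mutants. For gal1 and gal10 the single mutants differed by 2.02 and 3.05, and the difference between backgrounds did not pass (limma, adjusted p of 0.525 and 0.566). The levels behind these values were unlike those of the double mutants. In Δmst2, gal1 was at 10.39 and 10.42 and gal10 at 7.36 and 7.41, near wild type at 10.50 to 11.02 and 7.10 to 8.07. In Δgcn5 they were higher and scattered, at 11.50 and 13.34 and at 9.22 and 11.64. For gal7, Δmst2 was at 10.00 and 10.25 and Δgcn5 at 10.33 and 12.36. The gene say1 was opposite in sign, at -1.81 in the single mutants, with a difference between backgrounds of 3.68 ± 0.68 (limma, adjusted p = 0.00576). For gst2, pma2 and hsp16 the single mutants gave -3.44, 1.73 and -1.77, close to the double mutants, and the difference between backgrounds was 0.31 ± 0.40, -0.01 ± 0.27 and -0.21 ± 0.64 (limma, adjusted p of 0.621, 0.99 and 0.852).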

How the data were processed

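The authors deposited 1 log2 intensity per probe set and array after RMA, which corrects background, quantile normalizes all arrays and summarizes probes, so that a shift common to all genes would be removed. RMA and limma are named without a version in the submitters' processing notes. Of 5028 probe sets, 29 controls and 18 further probe sets of a gene already held were left out (the probe set with the highest mean was kept), and 4981 features were tested, 2896 with 1 gene name. Of the platform's gene identifiers, 2914 were found in the RefSeq annotation, which updated 113 symbols. Position is gene order only.

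The fit used limma 3.58.1 in R 4.3.3 with group means over 8 arrays (3 Δelp3, 2 Δgcn5 Δelp3, 3 Δmst2 Δelp3), all of 1 experiment date, two-sided, with 5 residual degrees of freedom and Benjamini-Hochberg adjustment over all features. A gene rose or fell at an adjusted p under 0.05. The higher threshold of the study, 3.25, was read as a fold. The script was tested on simulated data. The number of arrays limits the precision.

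Named genes were gcn5, mst2, elp3 and ura4, then up to 15 named genes each way at the fold threshold, then the 4 members of each of 30 gene lists that passed with the largest differences. The members and lists were chosen with earlier results of these data known. The difference between backgrounds was added after the data were seen. Alternatives changed the arrays in the fit, normalization, variance model, filter on dim features, probe set summary, replicate block, fold threshold and, in turn, each replicate. No sequence table for this organism was used here.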

Additional observations from a re-analysis of the deposited data

Results flagged for a closer look

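For 16 named genes the difference between Δgcn5 Δelp3 and Δmst2 Δelp3 was not the same as that between Δgcn5 and Δmst2, by a test of the difference itself in limma over 22 arrays, which 7.29% of all features passed. The 2 pairs of groups come from different experiment dates and, for the Δgcn5 strains, another mating type, which cannot be told apart from the elp3 deletion. The difference was positive, that is, toward higher in Δgcn5 Δelp3, by 2.437 for gal7, 3.684 for say1, 0.683 for sir2, 1.087 for zrt1 and 1.544 for obr1. It was negative for ste7 at -1.974, gap1 at -0.85, spn6 at -1.387, cao1 at -1.922, ctr5 at -1.126, ctr4 at -1.789, gpd2 at -0.615, isp5 at -4.505, aca1 at -1.273 and mid2 at -0.79. The largest value, 6.807, was that of his3, which the study's strain list gives as his3-D1 for 1 of the Δgcn5 strains. The his3 level was 5.94, 6.18 and 13.69 on the 3 arrays labelled Δgcn5.

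The adjusted p was under 0.01 for say1, his3, ste7, gap1, cao1 and obr1 and between 0.01 and 0.05 for the other 10. For cao1 the single mutants differed by 0.49 (adjusted p = 0.149) and the double mutants by -1.43. For isp5 they differed by 3.10 and -1.40, in opposite directions, both past the threshold in limma (adjusted p of 0.0147 and 0.0114).

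Most of these calls rested on single arrays. Without Δmst2 replicate 1, or without either replicate of Δgcn5 Δelp3, 10 of the 16 genes no longer passed. Over the 10 alternatives run, say1, gap1 and cao1 passed in the same direction under all 10, while ste7, his3 and obr1 did so under 9 and the others under 2 to 6. With all 24 arrays 4 genes no longer passed, among them his3 at 1.78 (limma, adjusted p = 0.703) and ste7 at -0.52 (adjusted p = 0.733), and spn6 and obr1 changed sign, to 0.435 and -0.19.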

How the results depend on the processing

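No named gene changed direction in the comparison of the double mutants under any of the alternatives run. With all 24 arrays in the fit, 74 features were higher and 59 lower at an adjusted p under 0.05, and 6 lower at the fold threshold. With 22 arrays the counts that passed were 173 and 156. Without the dimmest 20% of features, 7 were higher and 10 lower at the fold threshold, since gal7, gal1, gal10, grt1 and pma2 were among those left out. A 1.7-fold threshold gave 105 and 109. The replicate number as a block gave 197 higher and 182 lower that passed. The numbers do not pair the arrays, since same-numbered arrays of the double mutants had correlated deviations of -0.002 and 0.104, and the labels name no shared origin. Leaving out 1 replicate gave 29 to 39 higher and 13 to 26 lower at the fold threshold, and 75 to 374 and 80 to 386 that passed. With all 24 arrays 27 of the 50 at the fold threshold were shared, and gal1, gal10, say1, tlh2, ura4, gst2 and hsp16 no longer passed. Without replicate 1 or 2 of Δgcn5 Δelp3, 32 and 35 of 62 named genes no longer passed, tlh2 and hsp16 among them. The cause was not tested.

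The difference between backgrounds passed for 99 features with all 24 arrays and for 57 to 1530 with 1 array left out. With all 24 arrays spn6 and obr1 turned, to 0.435 and -0.19. The group of 2 Δgcn5 Δelp3 arrays limits the precision of every contrast here.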
